A study of Mus musculus with 6 samples.

Results

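The 4 genes described here are the miRNA genes Mir26a-1 and Mir26a-2 and the protein-coding genes that hold them, Ctdspl and Ctdsp2. They were chosen by name and matched by Ensembl identifier, by a rule that uses no measured value, and all 4 were found among the 10065 genes of the table of small RNA sequencing of mouse hearts. Whole hearts came from 3 ADAR2-/- (Adarb1-/-, Gria2R/R) and 3 wild-type mice of strain SV129 at postnatal day 6. By the study's methods the wild-type siblings also carried the pre-edited Gria2R/R allele, which rescues mice without ADAR2 from early death, and all animals were female; the genotype labels name that allele for the ADAR2-/- samples only. ADAR2, encoded by Adarb1, deaminates adenosine to inosine in double-stranded RNA.

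The value used was the authors' mean normalized count, the mean of the read counts of a gene after division by a size factor per library. It is 1 number per gene that pools both genotypes, so the values below are levels in all of these postnatal hearts. They carry no spread between animals and no comparison of ADAR2-/- with wild type, and no difference between genes could be tested. The table does not give the depth of each library. The sum of all means was 214408, and the 134 miRNA genes held 2.55% and the 8439 protein-coding genes 81.5% of it. The median mean was 7.64 for miRNA genes and 6.77 for protein-coding genes, and the lowest mean listed was 1.09. Of 13 heart muscle genes fixed as markers, 11 had a row and 10 of these lay above the median of their class, led by Myh7 and Mir208b. Tnnt2 (4.82) lay below it, and Tnni3 and Nppa had no row among those analysed here. Mir208b and Mir208a lie in Myh7 and Myh6 and had 99.4% and 97.3% of their means, so these may not be separate markers. Rows were listed for 6 of 6 blood markers, 3 of 3 endothelial markers, 2 of 4 markers of nervous tissue (Snap25, with a mean of 6.03, and Syp, with 2.26) and 0 of 3 liver markers. Above the median of their class lay 2 of the 6 blood markers, 2 of the 3 endothelial markers and 0 of the 2 nervous markers. Adarb1 had a mean of 16.6, which pools animals with and without the gene and therefore does not check the genotypes.

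miRNAs are cut from a hairpin of the primary transcript by Drosha and Dicer, and either arm of the hairpin can give a mature miRNA of about the length of a Dicer product. The seed, a short stretch near its 5′ end, pairs with sites in mRNAs. In vertebrates each miR-26 gene lies in an intron of a gene for a small phosphatase of the carboxy-terminal domain of RNA polymerase II: Mir26a-1 in Ctdspl, Mir26a-2 in Ctdsp2 and Mir26b in Ctdsp1. These FCP1-type phosphatases also act with the REST repressor complex on neuronal genes and dephosphorylate Smad proteins and, for Ctdspl, the retinoblastoma protein. In heart, miR-26a is known for its effects on growth of muscle cells and on fibrosis.

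The mature sequences are shown because they decide which reads can be assigned to which gene. They are from RefSeq (GRCm38.p6), written 5′ to 3′ with the seed (bases 2 to 8) in capitals.
miR-26a-5p, from Mir26a-1 and from Mir26a-2: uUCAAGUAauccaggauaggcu
miR-26b-5p, from Mir26b: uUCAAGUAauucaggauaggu
miR-26a-1-3p, from Mir26a-1: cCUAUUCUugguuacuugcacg
miR-26a-2-3p, from Mir26a-2: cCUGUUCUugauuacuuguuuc
miR-26b-3p, from Mir26b: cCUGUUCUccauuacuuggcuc
The 5p arm of 22 bases was identical in Mir26a-1 and Mir26a-2, with 0 substitutions. It differed from the 5p arm of Mir26b by 2 substitutions over 21 compared bases, C11U and C21U, counted from 1 at the 5′ end, with the base of miR-26a first. All 3 genes share the 5p seed UCAAGUA, which among 1679 mature names in the RefSeq table is held by miR-26a-5p and miR-26b-5p. The 3p arms of Mir26a-1 and Mir26a-2 differed at 6 of 22 positions, of which A4G lies in the seed. The 3p seed of Mir26a-2 is therefore that of Mir26b, and miR-6932-3p and miR-7039-3p have it too. No other name in the table has the 3p seed of Mir26a-1.

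Over the whole hairpins, of 90 bases for Mir26a-1 and 84 bases for Mir26a-2, the longest shared stretch was 25 bases, uucaaguaauccaggauaggcugug, which holds the 5p arm and the first bases of the loop. Of the stretches of 22 bases in the hairpins, 4 of 69 in Mir26a-1 and 4 of 63 in Mir26a-2 occur in both. A read of the 5p arm therefore matches both genes equally well, and only reads that reach beyond this stretch or come from the 3p arm tell the genes apart. How reads with several matches were counted, and whether mapping to mature miRNA sequences that allows mismatches entered the table, is not given in the sources used here. Neither hairpin shared 22 bases with that of Mir26b, and the 22 bases of miR-26a-5p occurred in the GENCODE M21 transcripts of no gene other than Mir26a-1 and Mir26a-2.

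The listed means of Mir26a-1 and Mir26a-2 were close and middling among the miRNA genes, and that of Mir26b was the lowest of all miRNA genes listed. Reads of the 5p arm match both miR-26a genes, and how such reads were counted is not given. The miR-26a means may therefore not be separate levels of each gene. Their ranks, their sum and their ratios to other miRNA genes also depend on how these reads were counted, so they are not read as the abundance of miR-26a. Mir26a-1 (ENSMUSG00000065513) had an authors' mean of 7.09 and ranked 69 of 134 from the top, above 48.9% of the other miRNA genes (95% Wilson interval 40.5 to 57.3, counted over genes rather than animals). Mir26a-2 (ENSMUSG00000065430) had a mean of 7.95 and ranked 64, above 52.6% of them (44.2 to 60.9). The mean of Mir26a-2 was 1.12 times that of Mir26a-1, a gap of 0.862 normalized counts within which 4 other miRNA genes lay. Per base of hairpin the ratio was 1.20. With no value per library it cannot be said whether this difference is larger than the spread between hearts. Mir26b had a mean of 1.63, so that Mir26a-1 was 4.33 times and Mir26a-2 4.86 times as high on this scale. Both ratios rest on a Mir26b mean near the lowest of all genes listed, 1.09. Together the miR-26a genes made up 0.275% of the summed means of all miRNA genes, and the muscle-specific Mir208b, the highest, was 118 times as high as Mir26a-2. The genes nearest in level were Mir6406 and Mir99b below and Mir30e and Mir30f above Mir26a-1, and Mir23b and Mir6236 below and Mir16-1 and Mir23a above Mir26a-2. This likeness rests on 1 pooled mean and is not a shared pattern across hearts.

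**Figure D1:**
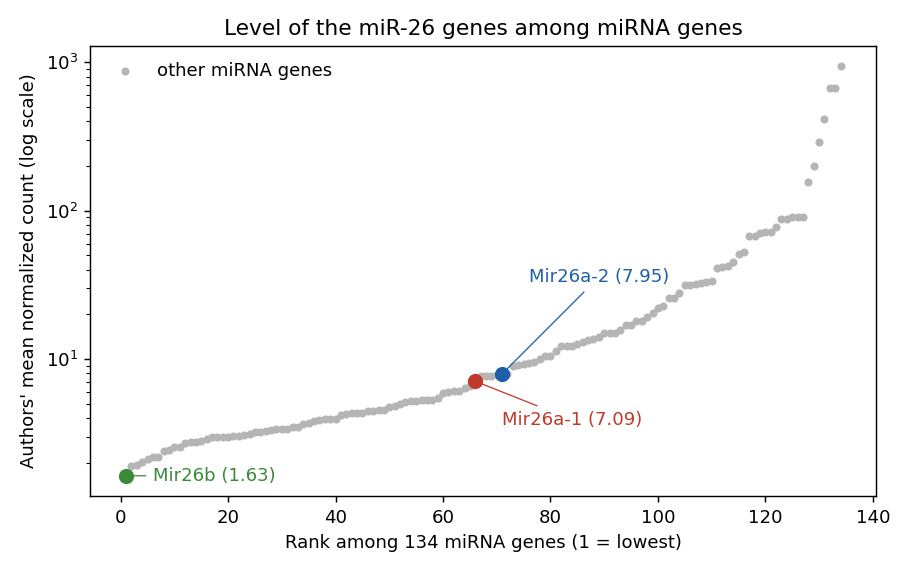
Authors' mean normalized count of 134 miRNA genes (y axis, log scale) against rank from the lowest (x axis); each point is 1 gene and carries no error because the mean pools all samples. Mir26a-1 (7.09) and Mir26a-2 (7.95) sit in the middle of the ranking and Mir26b (1.63) at its low end.

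The closeness of the miR-26a genes was set beside that of other miRNA genes that share a mature sequence. Among the miRNA genes with a row, 97 of 134 were matched by symbol to RefSeq, and among these matched genes 14 pairs at different places had at least 1 identical mature sequence. The ratio of the higher to the lower mean ran from 1.06 for Mir181a-1 and Mir181a-2 to 1.69 for Mir125b-1 and Mir125b-2 in these 14 pairs, and was 1.12 for the miR-26a genes. Genes without a match were not compared, so the 14 pairs do not give the place of the miR-26a genes among all miRNA genes that share a sequence. Genes of like name with close means, such as Mir1a-1 (90.5) and Mir1a-2 (91.2) or Mir133a-1 (67.1) and Mir133a-2 (67.4), are not among the 14 pairs. Pairs with similar ratios were Mirlet7c-1 and Mirlet7c-2 (1.10) and Mir16-2 and Mir16-1 (1.14). The Mir24 genes and the Mir3074 genes on the other strand of the same places had the same values, so the 14 pairs hold 13 distinct sets. A ratio of at most 1.5 was found for 13 of the 14 pairs. The share of miRNA gene pairs without a shared sequence at such a ratio was not computed. Some genes, such as Mir199b, also enter more than 1 pair. The count therefore does not set these pairs apart. These pairs were compiled after values had been seen, and no test was made.

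**Figure D2:**
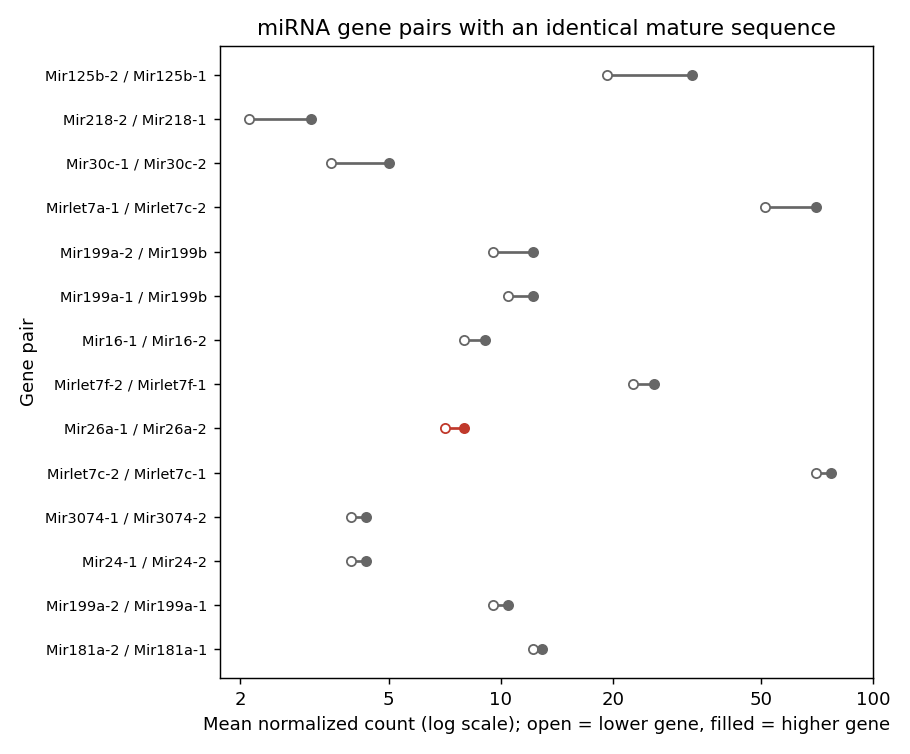
Authors' mean normalized counts (x axis, log scale) of the 14 pairs of symbol-matched miRNA genes that share an identical mature sequence (y axis, ordered by ratio with the lowest at the bottom); the open point is the lower gene, the filled point the higher gene. The miR-26a pair, in red, spans 7.09 to 7.95 and lies between the pairs with ratios of 1.06 and 1.69.

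Unlike the miRNA genes, the hosts lay far apart. Ctdspl (ENSMUSG00000047409), the phosphatase gene that holds Mir26a-1, had a mean of 461 and ranked 39 of 8439 protein-coding genes from the top. It lay above 99.5% of them (95% Wilson interval 99.4 to 99.7 over genes) and at 68.1 times their median. Ctdsp2 (ENSMUSG00000078429), the host of Mir26a-2, had a mean of 10.2, above 64.1% of protein-coding genes (63.1 to 65.2) and at 1.51 times their median. The mean of Ctdspl was 45.1 times that of Ctdsp2.

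Ctdspl is the longer gene, with a span of 117546 bases against 21259 for Ctdsp2, while their merged exons are of similar length, 5190 and 5524 bases. Per kb of span Ctdspl had 3.92 and Ctdsp2 0.481 normalized counts, a ratio of 8.16, and per kb of exons 88.8 and 1.85, a ratio of 48.0. Ctdspl was thus the higher gene on each of these scales, though the size of the difference depends on which part of the gene the reads came from, which the table does not give. Among 1590 protein-coding genes with a span from 0.7 to 1.3 times that of Ctdspl, 4 had a higher mean, and their median was 9.40. Among 1058 genes with a span similar to that of Ctdsp2 in the same sense, 179 had a higher mean, and their median was 3.95.

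**Figure D3:**
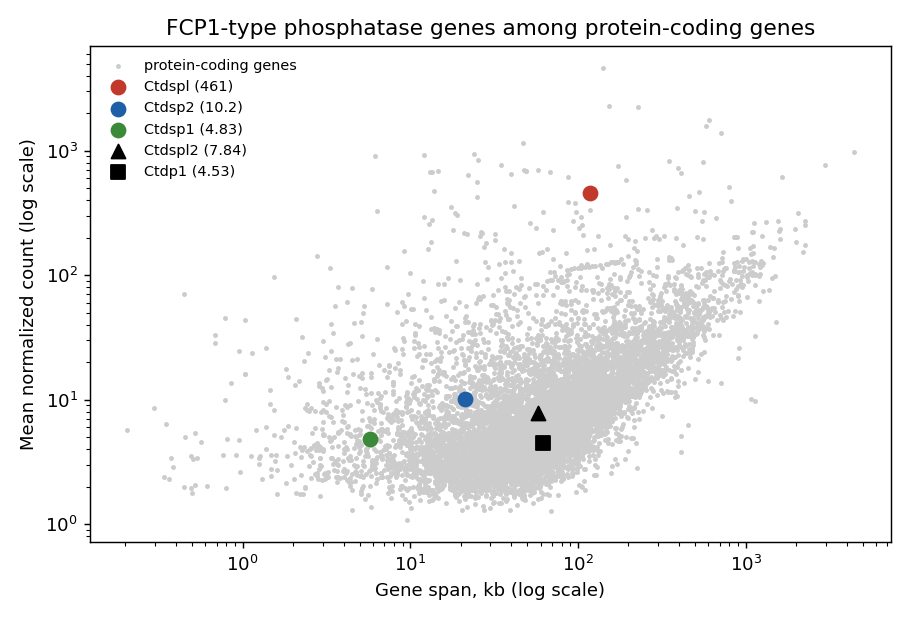
Authors' mean normalized count (y axis, log scale) against gene span in kb (x axis, log scale) for protein-coding genes with a place in the annotation, with the 5 listed FCP1-type phosphatase genes marked. Ctdspl (461) lies above most genes of its span, whereas Ctdsp2 (10.2) and the other 3 lie in the main cloud.

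Each miRNA gene was then compared with its host. In GENCODE M21 (GRCm38), Mir26a-1 lies on the plus strand of chromosome 9 from 119031796 to 119031885, within Ctdspl (118926453 to 119043998, plus strand). It falls in an intron of 3283 bases in the 3 annotated transcripts that reach it and overlaps no annotated exon. Mir26a-2 lies on the plus strand of chromosome 10 from 126995530 to 126995613, within Ctdsp2 (126978717 to 126999975, plus strand), in an intron of 1946 bases in 1 transcript and in no exon. The submitters' processing notes name the older build mm9, and these positions were not converted to it.

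The mean of Mir26a-1 was 1.54% of the mean of Ctdspl, and the mean of Mir26a-2 was 77.8% of the mean of Ctdsp2. These are ratios of values per gene and turn with length. Per base of hairpin and of merged host exons they were 88.6% and 5114%, and per base of hairpin and of host span 2007% and 19681%, so that Mir26a-2 lay below its host per gene and above it per length, and Mir26a-1 lay above its host on the scale of the span. If the hairpin's mean is first taken off the host's, Mir26a-2 was at 349.8% of the remainder and Mir26a-1 at 1.56%. Values per gene are used for the other pairs. Across 42 pairs of a miRNA gene and a protein-coding gene that holds it on the same strand, the miRNA mean was above the host mean in 0. If a host's value includes the reads of its hairpin, no miRNA mean can exceed it. The count of 0 is then set by the counting and is not a result about the genes. The percentages of the 42 pairs had a median of 44.2% and reached 99.9%, and 20 pairs were at 50% or more. The pairs are not all separate places. Mir126a is counted in both Egfl7 and Gm20532, and Spaca6 holds Mir99b, Mirlet7e and Mir125a. Mir26a-1 in Ctdspl had the lowest percentage of the 42, followed by 2.26%. It also had the lowest of the 69 pairs on either strand, where Mir214 in Dnm3 followed at almost the same value, 1.56%. Mir26a-2 in Ctdsp2 had 29 pairs below it and 12 above. The mean of Mir26b was 33.8% of that of Ctdsp1 (4.83), with 19 pairs below it and 22 above.

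**Figure D4:**
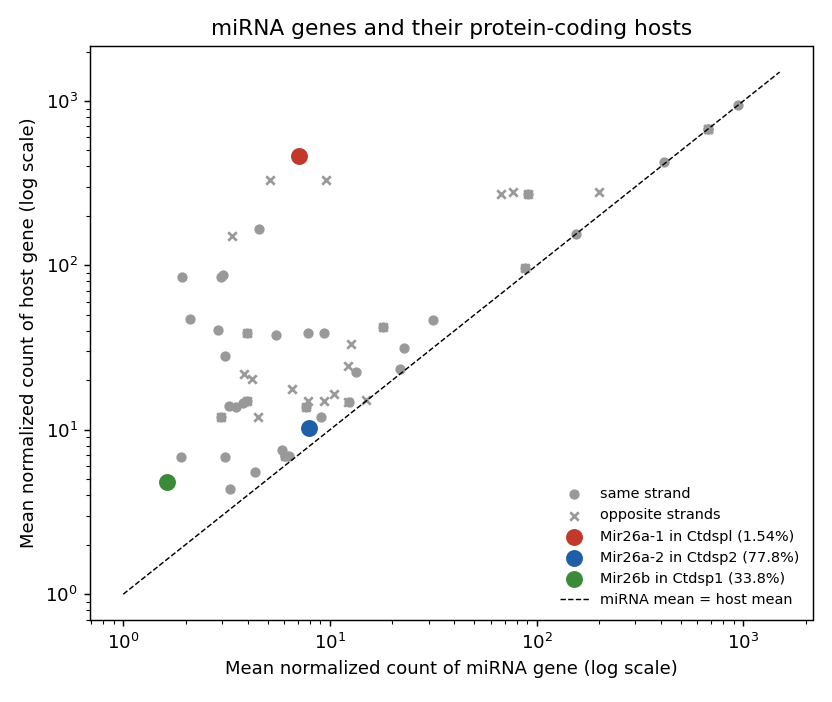
Authors' mean normalized count of the host gene (y axis, log scale) against that of the miRNA gene inside it (x axis, log scale) for 69 pairs; circles are pairs on the same strand and crosses pairs on opposite strands, and the dashed line marks equal means, all per gene and not per length. No pair lies below the line, Mir26a-2 in Ctdsp2 lies near it (77.8%), and Mir26a-1 in Ctdspl lies farthest from it (1.54%). If host values include the reads of their hairpins, which is not given, no pair could lie below the line.

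Whether a host's value includes the reads of its hairpin is not given in the sources used here. Hosts of several hairpins differed. Mir99b (6.37), Mirlet7e (6.08) and Mir125a (6.04) together exceed Spaca6 (6.93), which holds them on the same strand. Mir99a (199.6) and Mirlet7c-1 (77.2), on the opposite strand of Gm11146 (277.6), together do not exceed it. For Ctdspl and Ctdsp2 this was not tested. In 14 of 14 overlapping pairs of miRNA genes on opposite strands the means were identical, so reads were not told apart by strand there. If the hairpin reads are included in the host's value, the remainder after subtraction was 454 normalized counts for Ctdspl and 2.27 for Ctdsp2, a ratio of 199.8. The other genes annotated within the span of Ctdspl were Mir26a-1 and the end of the antisense gene Gm2415, which overlaps it by 3 bases and had a mean of 2.39. Ctdsp2 holds, besides Mir26a-2, the miRNA gene Mir546 (121 bases, plus strand), which had no row among those analysed here. Of 5187 stretches of 22 bases in Ctdspl transcripts, 0.848% also occurred, on either strand, in transcripts of other genes. In Ctdsp2 transcripts this share was 16.3% of 5421, and 703 of the 885 shared stretches lay in Gm9770, which also had no row among those analysed here. Introns, from which reads of either host could also come, were not compared, because no genome of the files' build was used.

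The other FCP1-type phosphatase genes were near or below the level of Ctdsp2. Of 8 such genes, 5 had a row and 3, Ctdnep1, Ublcp1 and Timm50, had none among those analysed here. Ctdspl2 had a mean of 7.84, Ctdsp1 one of 4.83 and Ctdp1, which recycles RNA polymerase II by removing phosphates from its carboxy-terminal domain, one of 4.53. Per kb of span Ctdspl2 had 0.136 and Ctdp1 0.0734 normalized counts, against a median of 0.118 for protein-coding genes. Ctdsp1 had 0.837 on the same scale, between Ctdsp2 and Ctdspl.

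Of 8 genes listed as substrates and partners of these phosphatases, 6 had a row, and 2 of these lay above the median of protein-coding genes. The retinoblastoma gene Rb1 had the highest mean, 17.7, above 78.4% of protein-coding genes, followed by Smad3 with 7.61. Rcor1, a corepressor that binds REST, had a mean of 6.28, Smad1 one of 5.39, Rest itself 3.23 and Smad2 3.08. Per kb of span Rest lay above 62.0% of protein-coding genes, Rb1 above 52.8% and Smad3 above 21.4%, so this order turns with length. Polr2a, the subunit of RNA polymerase II that bears the carboxy-terminal domain, and Snai1 had no row among those analysed here.

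Of 14 genes known as targets of miR-26a, 10 had a row, 6 above and 4 below the median of protein-coding genes, with a median mean of 9.17. The highest were Gata4, a transcription factor of heart muscle (98.4), Gsk3b, a kinase that restrains growth of the heart (83.8), Smad4, the partner of the receptor-activated Smads (75.7), and Ezh2, the histone methyltransferase of the Polycomb complex (28.1). Cdk6, which drives entry into the cell cycle, had a mean of 9.91 and Hmga2 one of 8.44. Map3k2 had a mean of 4.15. The lowest were Lin28b (1.89), an inhibitor of let-7 processing, and Hmga1 (4.04), a chromatin protein that binds AT-rich DNA. Ccnd2, Ccne1, Ccne2 and Kcnj2 had no row among those analysed here. The libraries were made for small RNA, and which part of these genes the reads came from is not given by the table, so the values are not read as mRNA levels.

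The hosts were also searched for matches to the seed that their miRNA genes share, because a miRNA can pair with the transcript that carries it. The letters TACTTGA, which pair with bases 2 to 8 of miR-26a-5p, were searched on the sense strand of the longest annotated protein-coding transcript. Ctdspl held 0 matches in 3349 bases of 3′ UTR and 831 bases of coding sequence, and Ctdsp1 also held 0. Ctdsp2 held 1 match, at base 1080 of its 3′ UTR of 3483 bases, shown here with the match in capitals.
Ctdsp2, 3′ UTR: tgttgctctTACTTGAtttgccaaa
A match was present in 647 of 2937 genes with a 3′ UTR from 0.7 to 1.3 times as long as that of Ctdsp2, and in 646 of 3088 genes for the length of Ctdspl. The match describes the annotated sequence and does not show that the site is used.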

How the data were processed

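Small RNA libraries of 3 ADAR2-/- and 3 wild-type hearts were analysed from the authors' table of 10065 genes. Per the labels and the study's methods the authors removed adaptors with Cutadapt, mapped reads with Bowtie and compared genotypes with DESeq. The methods also describe mapping of clipped reads to mature miRNA sequences with NextGenMap at a minimum identity, and which mapping made the table is not stated. The submitters' processing notes name the build mm9, and annotation and versions are not given in the sources used here. The signal used was the authors' mean normalized count over samples. The table's 6 columns of fold changes, standard error, statistic and p-values are the authors' own comparison and were not used. The table gives no depth per library, and the methods state a minimum of reads per sample only. Intervals on ranks cover the number of genes only.

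Names, lengths and positions come from GENCODE M21 (GRCm38), matched by Ensembl identifier; 60 identifiers were unmatched. Levels, ratios, ranks, shares of hosts and shared stretches of 22 bases were computed with Python 3.11.15, numpy 2.4.6, pandas 2.3.3, scipy 1.17.1 and matplotlib 3.10.9, and the functions were tested on simulated data. No test between samples could be made. Named were the members, the gene lists given in the report, the nearest 2 genes above and below each member in its class, the miRNA genes with the highest means and Adarb1; genes with the same mature sequence or shared stretches were added after their values were seen. A gene on the fixed list of miR-26a targets was left out of that list and is not reported here. The rule for the members uses no measured value, but members and lists were chosen with earlier results of these data known. Alternatives were scaling per base, pseudocounts of 1 and 10, a minimum mean of 10, collapsed identical rows and subtraction of the hairpin's mean.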

Additional observations from a re-analysis of the deposited data

How the results depend on the processing

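No paired analysis was possible because the values are 1 mean per gene over all samples; for the same reason no replicate was left out. Of 28 alternatives, 7 left the value within its interval or at the same count, and 21 moved it. Some of these moves, such as those by a pseudocount, follow from construction. The moves of the host ranks per kb depend on the data. Among the 7 are those on the count of 0 miRNA genes above their host. A minimum mean of 10 takes a subset there and could not change the 0. Host values that include hairpin reads would fix the 0 on either strand. The ratio of Mir26a-2 to Mir26a-1 (1.12) was 1.20 per base of hairpin, 1.11 with a pseudocount of 1 and 1.05 with a pseudocount of 10. None of these could turn it below 1, since the higher gene has the shorter hairpin and a pseudocount keeps the order. The share of Mir26a-1 in Ctdspl (1.54%) became 88.6% per base of hairpin and merged host exons, 2007% per base of hairpin and host span, and 1.56% after subtracting the hairpin's mean from the host. For Mir26a-2 in Ctdsp2 (77.8%) these were 5114%, 19681% and 349.8%, above those of Mir26a-1 on each scale. The share of lower miRNA genes was 0% for Mir26a-1 and 0% for Mir26a-2 when others under a mean of 10 were left out, because both lie under it. For Ctdspl the share of lower protein-coding genes (99.5%) was 98.8% with that minimum and 98.2% per kb of span; for Ctdsp2 (64.1%) it was 1.85% with the minimum, 60.8% per kb of exons and 87.0% per kb of span. The share of the miRNA sum on the miR-26a genes (0.275%) was 0.334% with identical rows counted once and 0.294% without rows named Gm. The ratio of Ctdspl to Ctdsp2 (45.1), with alternatives chosen after seeing the data, was 48.0 per kb of exons, 8.16 per kb of span and 199.8 after subtracting the hairpins. Means under 10 limit both miR-26a genes and Mir26b.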

Other observations

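The protein-coding genes at or above the mean of Ctdspl were searched for small RNA rows inside them. Of these 39 genes, 38 had a place in GENCODE M21, and 32 of the 38 held no row of a miRNA, snoRNA, snRNA, rRNA or other small RNA class. The share of all protein-coding genes without such a row was not computed, so this count does not set these genes apart. Of the 6 that did, 4 held a small RNA row that reached at least 50% of the gene's mean, among them Myh7, the host of Mir208b (99.4%), and Egfl7, the host of Mir126a (99.9%), a miRNA of endothelial cells. Gm20532, also among the 4, holds the same Mir126a (99.3%), so Egfl7 and Gm20532 are not separate cases. Ctdspl, at 1.54%, was not among the 4. The highest of the 38 was Myh15, a myosin heavy chain gene, with a mean of 4563, followed by Abtb2 (2292) and Cobl (2233), none of which held a small RNA row. The genes nearest to Ctdspl in mean were Lhfpl3 and Fcgr3 above and Gphn and Myh6 below. These genes were named after their values were seen, and where in them the reads lie was not tested.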
